A study of Mus musculus with 2 samples.

Results

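The 10 genes described here encode the phospholipase C beta enzymes (Plcb1, Plcb2, Plcb3 and Plcb4) and the calcium release channels of the endoplasmic reticulum, which are the inositol trisphosphate (IP3) receptors Itpr1, Itpr2 and Itpr3 and the ryanodine receptors Ryr1, Ryr2 and Ryr3. They were chosen by symbol, by a rule that uses no measured value, although earlier results of these data were known at the time. All 10 were found among the 32531 gene symbols counted. RNA on EGFP-tagged ribosomes was pulled down from the ventral striatum of untreated adult control mice of the transgenic line JX5852, which carries the Stard5-EGFP/Rpl10a fusion. The tag marks cells that use the Stard5 regulatory sequence, and 1 line cannot separate that sequence from effects of where the transgene lies. The 2 libraries, replicate 1 and replicate 2, form 1 group, and no input RNA or untagged mouse was analysed here, so levels do not show enrichment in the tagged cells. The labels do not give sex, nor whether the replicates came from separate mice or from pools, and any spread or p between them may therefore measure technical variation alone.

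In striatal neurons, receptors coupled to the G protein Gq, such as the metabotropic glutamate receptor mGluR5 and the muscarinic receptor M1, activate phospholipase C beta. The enzyme splits the membrane lipid phosphatidylinositol bisphosphate into diacylglycerol, which acts on protein kinase C, and IP3, which opens IP3 receptors on the endoplasmic reticulum. Ryanodine receptors lie in the same membrane and open when calcium rises, so that they can amplify a calcium signal.

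The members of a family resemble each other, so the coding stretches below are shown to let the copies be compared around a short pattern that they share. For the enzymes the stretch codes for the part of the catalytic domain that holds an active-site histidine. Capitals mark the only in-frame match to a pattern of 6 codons around that histidine, with free bases at variable positions, searched on the coding strand in the longest coding transcript of GENCODE M21 (GRCm38).
Plcb1: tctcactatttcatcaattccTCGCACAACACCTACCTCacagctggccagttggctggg
Plcb2: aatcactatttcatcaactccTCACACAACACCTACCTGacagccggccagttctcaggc
Plcb3: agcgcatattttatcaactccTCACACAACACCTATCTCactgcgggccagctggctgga
Plcb4: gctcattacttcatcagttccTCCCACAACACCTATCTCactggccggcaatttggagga

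The stretch is joined from exons 10 and 11 in Plcb1 (chr2:135294953-135294995 and chr2:135310921-135310937, plus strand), Plcb2 (chr2:118719114-118719156 and chr2:118718935-118718951, minus strand) and Plcb3 (chr19:6964373-6964415 and chr19:6963438-6963454, minus strand). In Plcb4 it lies within exon 12 (chr2:135950316-135950375, plus strand). Of 21764 genes with a complete coding sequence, 41 (0.188%) held an in-frame match. Over the 60 bases, Plcb1 and Plcb2 were identical at 50 and Plcb3 and Plcb4 at 40.

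For the channels the stretch codes for the ion selectivity filter of the pore, which both families share. Capitals mark the only in-frame match to the 6-codon pattern of the filter, searched in the same way.
Itpr1: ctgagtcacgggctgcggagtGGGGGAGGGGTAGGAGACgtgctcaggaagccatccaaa
Itpr2: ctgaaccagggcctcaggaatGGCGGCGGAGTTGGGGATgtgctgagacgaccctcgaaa
Itpr3: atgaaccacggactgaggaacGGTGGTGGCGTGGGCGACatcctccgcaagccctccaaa
Ryr1: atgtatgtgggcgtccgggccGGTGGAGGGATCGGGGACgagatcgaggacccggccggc
Ryr2: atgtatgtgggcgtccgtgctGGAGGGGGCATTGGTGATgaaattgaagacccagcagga
Ryr3: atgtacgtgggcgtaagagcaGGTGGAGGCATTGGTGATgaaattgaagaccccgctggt

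These stretches lie in exon 58 of Itpr1 (chr6:108518767-108518826, plus), exon 53 of Itpr2 (chr6:146158890-146158949, minus) and exon 54 of Itpr3 (chr17:27118610-27118669, plus). In the ryanodine receptors they lie in exon 105 of Ryr1 (chr7:29005577-29005636, minus), exon 101 of Ryr2 (chr13:11560606-11560665, minus) and exon 100 of Ryr3 (chr2:112636610-112636669, minus). In-frame matches were found in 23 genes (0.106%). Ryr2 and Ryr3 were identical at 50 of the 60 bases and Itpr1 and Itpr2 at 40, while pairs of 1 IP3 and 1 ryanodine receptor were identical at 24 to 33.

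Over the whole coding sequence, identity was 58.3% to 66.8% between phospholipase C beta genes, 69.8% to 71.5% between IP3 receptor genes and 68.8% to 69.7% between ryanodine receptor genes. No stretch of 50 bases in the annotated transcripts of a member occurred in another member, on either strand, so reads of that length or longer could be assigned between the members. Between 0% (Plcb2 and Plcb3) and 4.27% (Ryr3) of the 50-base stretches of each gene occurred in a transcript of a gene outside the 10. For Ryr3 all of these came from Aven, which overlaps it on the opposite strand, and since the strand setting of the counting is not given in the sources used here, such reads cannot be told apart.

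The libraries held 25830282 and 29574781 reads in named genes. A gene was called detected at 1 CPM (1 read per 1000000 reads in named genes) or more in both libraries, which 12374 genes reached, 9 of the 10 among them. All 11 markers of striatal spiny projection neurons were detected, with summed levels of 9808 and 7205 CPM. All markers of astrocytes (10), oligodendrocytes (8), microglia (7) and cholinergic interneurons (4) were detected too. Detection alone therefore does not tell cell types apart. Levels of different genes are compared below as CPM per kilobase of annotated exon, since CPM grows with transcript length. Members had between 6597 (Plcb2) and 28790 (Ryr2) annotated exon bases, against a median of 4836 over detected genes.

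Plcb1 and Itpr1 stood above the other 8 members in both libraries, and each held most of the reads of its family. Plcb1, the enzyme known as the main form of forebrain neurons, had 16743 reads in replicate 1 and 19189 in replicate 2, equal to 648 and 649 CPM. The libraries did not differ beyond counting error, with 95% Poisson intervals of 638 to 658 CPM and 640 to 658 CPM. Per kilobase of exon its level was 58.3 ± 0.0405 (SD, n = 2), above 95.8% of the detected genes with a known exon length. Plcb1 (ENSMUSG00000051177.16) spans chr2:134786067-135475258 on the plus strand.

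Itpr1 encodes the IP3 receptor known as the main neuronal form, abundant also in cerebellar Purkinje cells. Its 24703 and 31771 reads equal 956 CPM in replicate 1 and 1074 in replicate 2. The mean of 1015 ± 83.4 CPM (SD, n = 2) ranked 90 of all symbols. The level in replicate 2 was slightly higher, and per kilobase of exon it was 52.2 and 58.6. Plcb1 and Itpr1 could not be ordered per kilobase of exon, since the sign of their log2 difference changed between the libraries (0.16 and -0.01). With the longest transcript as the length instead, Itpr1 stood 0.19 ± 0.12 log2 units above Plcb1 (n = 2). Itpr1 (ENSMUSG00000030102.11) spans chr6:108213096-108551109 on the plus strand.

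**Figure D1:**
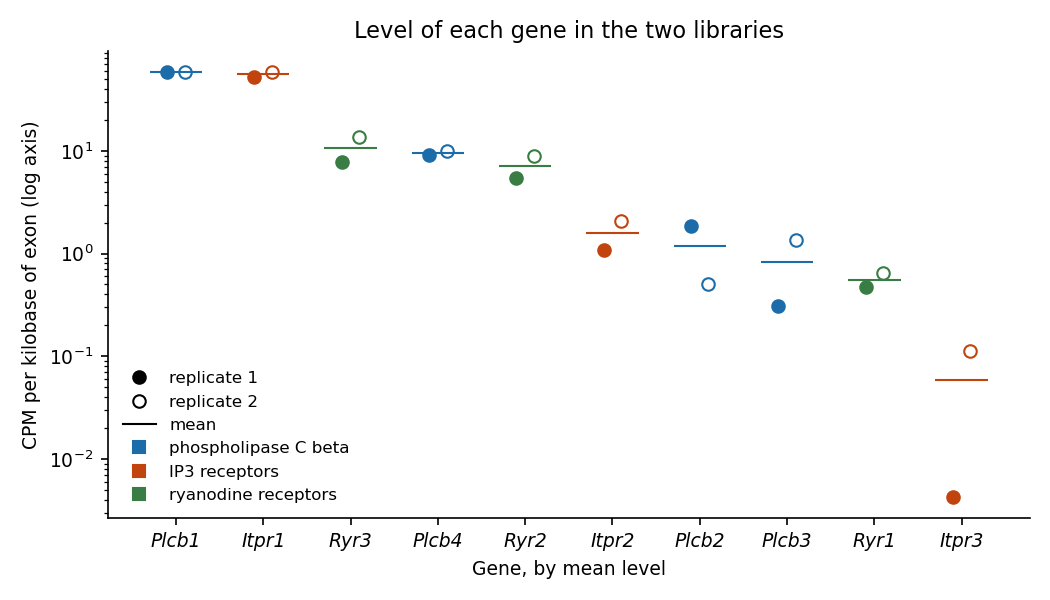
Level of each gene as CPM per kilobase of exon, on a log axis, in replicate 1 (filled) and replicate 2 (open), with the mean as a line. Plcb1 and Itpr1 lie between 52.2 and 58.6 in both libraries, while Plcb2 and Plcb3 change order between them.

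Plcb4, the enzyme known from the retina, cerebellum and thalamus, was the second phospholipase C beta gene. Replicate 1 held 2118 and replicate 2 held 2659 of its reads, equal to 82.0 and 89.9 CPM. Per kilobase of exon it was 9.58 ± 0.624 (SD, n = 2), and Plcb1 stood 2.61 ± 0.09 log2 units above it, a 6.10-fold difference that was present in both libraries. Plcb4 (ENSMUSG00000039943.16, chr2:135659011-136014593, plus strand) is the next gene after Plcb1 among the symbols with an annotation, 183752 bases downstream of its end.

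Plcb2 and Plcb3 were low and went in opposite directions between the libraries. Plcb2, known from blood cells and taste receptor cells, had 315 reads in replicate 1 and 98 in replicate 2, or 12.2 CPM (95% Poisson interval 10.9 to 13.6) and 3.31 CPM (2.69 to 4.04). Plcb3, a form found in many tissues, had 55 and 276 reads, or 2.13 CPM (1.60 to 2.77) and 9.33 CPM (8.26 to 10.5). Plcb2 was thus the higher of the pair in replicate 1 and Plcb3 in replicate 2, and their mean levels per kilobase of exon, 1.18 ± 0.952 and 0.823 ± 0.732 (SD, n = 2), cannot be ordered. Plcb2 (ENSMUSG00000040061.17) spans chr2:118707517-118728438 and Plcb3 (ENSMUSG00000024960.9) chr19:6952325-6976470, both on the minus strand.

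Of all reads of the 4 phospholipase C beta genes, Plcb1 held 87.1% in replicate 1 (exact Clopper-Pearson 95% interval from 86.6 to 87.5) and 86.4% in replicate 2 (from 85.9 to 86.8). Plcb4 held 11.0% (10.6 to 11.5) and 11.97% (11.5 to 12.4). Plcb2 and Plcb3 together held the remainder, each under 2% in both libraries. Summed over the family, replicate 1 had 745 and replicate 2 had 751 CPM, so the total was nearly equal.

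Itpr2, the IP3 receptor known as the main form of astrocytes and also found in heart and liver, was far below Itpr1. Its 415 reads in replicate 1 equal 16.1 CPM (95% Poisson interval 14.6 to 17.7), and its 912 reads in replicate 2 equal 30.8 CPM (28.9 to 32.9). Replicate 2 was the higher library, and the intervals did not overlap. Per kilobase of exon Itpr1 stood 5.20 ± 0.55 log2 units (SD, n = 2) above Itpr2, a 36.8-fold difference. Itpr2 (ENSMUSG00000030287.15) spans chr6:146108299-146502223 on the minus strand.

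Itpr3, known from secretory epithelia and taste receptor cells, had 1 read in replicate 1 and 30 reads in replicate 2. That is 0.0387 CPM (95% Poisson interval 0.00098 to 0.216) and 1.01 CPM (0.684 to 1.45), so the gene did not count as detected. In replicate 1 it was below the floor of 3 reads, or 0.116 CPM. Of the 9019 exon bases of Itpr3 (ENSMUSG00000042644.9, chr17:27057304-27122223, plus strand), 2.59% overlap other genes, among them Itpr3os on the opposite strand. Within the IP3 receptor family Itpr1 held 98.3% of reads in replicate 1 (exact Clopper-Pearson 95% interval from 98.2 to 98.5) and 97.1% in replicate 2 (from 96.9 to 97.3).

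The ryanodine receptors were led by a near-equal pair, Ryr2 and Ryr3. Ryr2, the form of heart muscle that is also widespread in the brain, had 4030 reads in replicate 1 and 7566 in replicate 2, equal to 156 and 256 CPM. Ryr3, a form of the brain and of smooth and developing muscle, had 3838 and 7601 reads, or 149 and 257 CPM. Both were higher in replicate 2, and to a similar degree. Ryr2 (ENSMUSG00000021313.16) spans chr13:11553102-12106945 and Ryr3 (ENSMUSG00000057378.15) chr2:112631355-113217096, both on the minus strand.

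By reads in replicate 1, Ryr2 held 49.5% of the family (exact Clopper-Pearson 95% interval from 48.5 to 50.6) and Ryr3 47.2% (from 46.1 to 48.3). In replicate 2 the shares were 48.6% (47.8 to 49.4) and 48.8% (48.0 to 49.6), so the order by reads changed. Per kilobase of exon Ryr3 was the higher in both libraries, with Ryr2 minus Ryr3 at -0.57 ± 0.05 log2 units (SD, n = 2), a 1.48-fold difference, and its share was 57.9%. Ryr3 stood only 0.09 ± 0.05 log2 units above Ryr2 when the longest transcript was used as the length, since the annotated exons of Ryr2 span 28790 bases and its longest transcript 16814.

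Ryr1, the release channel of skeletal muscle, was the lowest ryanodine receptor. Its 266 reads in replicate 1 equal 10.3 CPM (95% Poisson interval 9.10 to 11.6), and its 413 reads in replicate 2 equal 14.0 CPM (12.7 to 15.4). Per kilobase of exon Ryr1 minus Ryr2 was -3.66 ± 0.19 and Ryr1 minus Ryr3 -4.23 ± 0.25 log2 units (SD, n = 2), so Ryr2 stood 12.6-fold and Ryr3 18.8-fold above Ryr1. Of the 21838 exon bases of Ryr1 (ENSMUSG00000030592.18, chr7:29003344-29125179, minus strand), 4.19% overlap genes on the opposite strand.

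**Figure D2:**
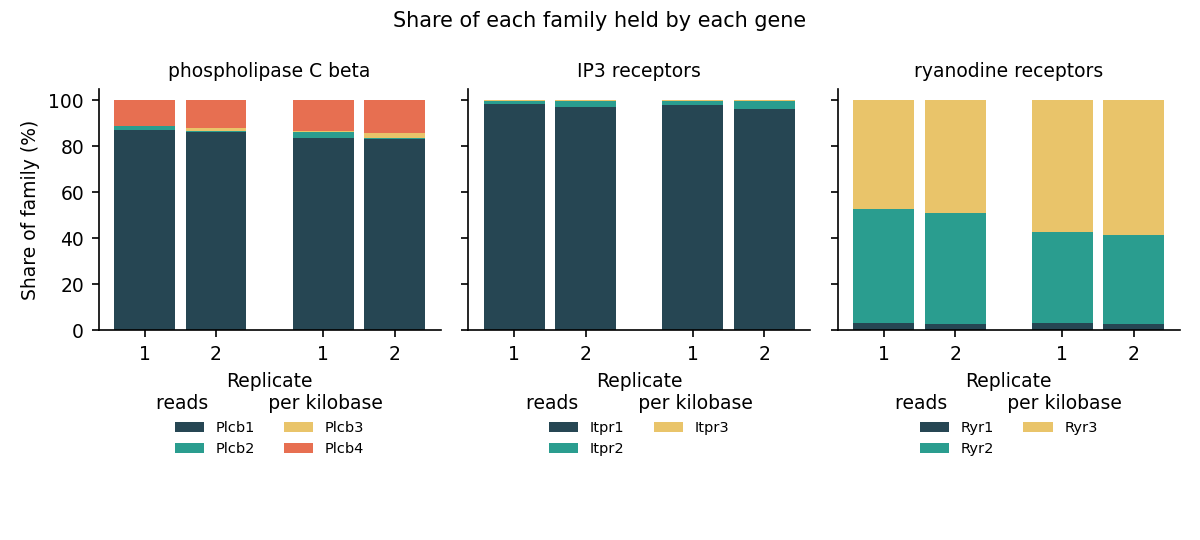
Share of each family, in percent, held by each of its genes in replicates 1 and 2, by reads (left pair of bars) and per kilobase of exon (right pair). Plcb1 and Itpr1 take most of their families in both libraries, while Ryr2 and Ryr3 divide theirs.

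Across all 10 members the order of mean CPM per kilobase of exon was Plcb1, Itpr1, Ryr3, Plcb4, Ryr2, Itpr2, Plcb2, Plcb3, Ryr1 and Itpr3. Neighbours were taken as ordered when their log2 difference had the same sign in both libraries and a mean above its SD, which held for 4 of the 9 pairs. Itpr1 stood 2.43 ± 0.44 log2 units above Ryr3, Plcb4 0.46 ± 0.41 above Ryr2, Ryr2 2.21 ± 0.16 above Itpr2, and Ryr1 4.64 ± 3.02 above Itpr3 (SD, n = 2). Ryr3 and Plcb4 changed order between the libraries, as did Itpr2 and Plcb2, and Plcb3 and Ryr1. On CPM without length the order was Itpr1, Plcb1, Ryr2, Ryr3, Plcb4, Itpr2, Ryr1, Plcb2, Plcb3 and Itpr3, with 6 of 9 pairs ordered and Ryr3 1.19 ± 0.47 log2 units (SD, n = 2) above Plcb4. Per kilobase of the longest transcript, 5 of 9 were ordered, and Plcb4 preceded Ryr3. An exact permutation test of 2 values against 2 cannot reach a p below 0.333, so none was run. As families, the IP3 receptors summed to 57.1 ± 5.33 and the ryanodine receptors to 18.4 ± 6.61 CPM per kilobase of exon, a ratio of 3.88 in replicate 1 and 2.64 in replicate 2.

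Of the 9 detected members, Plcb3 was higher in replicate 2 and Plcb2 in replicate 1 by the test of reads, and the other 7 did not reach a 2-fold ratio. The log2 ratio, replicate 2 over replicate 1 with library sizes scaled by TMM, the trimmed mean of M-values in edgeR, was 2.16 for Plcb3 (counting 95% interval 1.74 to 2.60), a 4.46-fold difference. For Plcb2 it was -1.85 (-2.20 to -1.52), or 3.61-fold lower in replicate 2. The 2-sided exact binomial test over all 12374 detected genes, with Benjamini-Hochberg adjustment, gave adjusted p of 1.38e-30 for Plcb3 and 6.36e-33 for Plcb2. Over all detected genes, 9.57% were called higher in replicate 2 and 7.78% higher in replicate 1 by this rule, so 1 member of 9 in each direction is near the background.

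The binomial test sets 1 library of the group against the other and takes in counting error only. In an exact test of edgeR the spread was estimated from the same 2 libraries taken as replicates, so the difference under test is itself the spread and the test cannot judge these calls. The ratios were nearly the same there, at 2.16 and -1.85 on the log2 scale, with adjusted p of 0.420 for Plcb3 and 0.567 for Plcb2. The edgeR exact test called 0 genes in all, and 754 of the 12374 detected genes had an unadjusted p below 0.05. Plcb3 (exact p = 0.00664) and Plcb2 (exact p = 0.0172) were among them. These p values share the limit of the test, so no conclusion is drawn from them.

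Itpr2 lay just under the 2-fold limit, at a log2 ratio of 0.97 (counting 95% interval 0.80 to 1.14). The ryanodine receptors were next, with Ryr3 at 0.82 (0.76 to 0.87), Ryr2 at 0.74 (0.68 to 0.79) and Ryr1 at 0.47 (0.24 to 0.69). Itpr1 was at 0.19, Plcb4 at 0.16 and Plcb1 at 0.03, so these had the smallest ratios of the 9, with Plcb1 and Itpr1 also at the top of the level order. The ratio of Itpr3 was 4.74 on the log2 scale, but rested on 1 read in replicate 1 and had an interval from 2.15 to 10.09. With no minimum ratio, 7 members passed towards replicate 2 and 1 towards replicate 1, where 39.1% and 39.8% of detected genes passed in these directions and 78.9% in either.

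**Figure D3:**
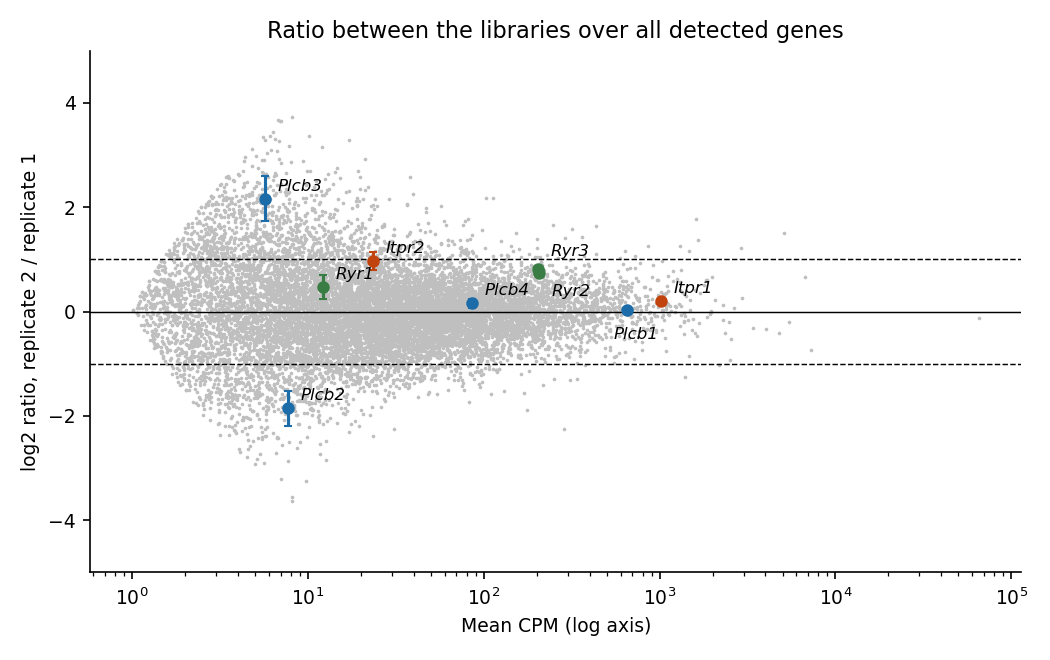
Log2 ratio of replicate 2 over replicate 1 against mean CPM (log axis) for all detected genes (grey) and the 9 detected members, with 95% counting intervals, where dashed lines mark a 2-fold ratio. Plcb3 lies above the upper line and Plcb2 below the lower line, and both have means under 10 CPM.

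Ratios also moved with exon length. Among the 574 detected genes with the longest exons (13247 bases or more), which include Itpr1, Itpr2, Ryr1, Ryr2 and Ryr3, the median log2 ratio was 0.33, against 0.00 over all detected genes. Relative to genes of like exon length, Itpr2 was at 0.64, Ryr3 at 0.49, Ryr2 at 0.41 and Ryr1 at 0.13. Itpr1 and Plcb1 turned to -0.14 and -0.21, and the calls of Plcb2 and Plcb3 did not change. The part of exon length in these ratios was not tested.

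Markers of other cells differed between the libraries as well. For the counts of calls given here and for the further lists, 9.57% of all detected genes were called higher in replicate 2. Those called higher in replicate 1 were 7.78%. The 10 astrocyte markers summed to 938 and 3083 CPM in replicates 1 and 2, and 7 were called higher in replicate 2. By mean CPM, Slc1a2, Aldoc and Slc1a3 were the highest and Aldh1l1 the lowest, at 2.13 and 8.12 CPM. The largest log2 ratio among them was that of Slc1a3, at 2.18. The median log2 ratio of the 10 astrocyte markers was 1.59, beside 0.97 for Itpr2. Of 8 markers for oligodendrocytes, 3 were called higher in replicate 2, with sums of 853 and 1330 CPM and a median of 0.74. Markers of microglia, which are myeloid cells, summed to 185 and 133 CPM in replicates 1 and 2, with all 7 ratios below 0, a median of -0.46 and 1 call (C1qb) as higher in replicate 1, beside -1.85 for Plcb2. No marker of these lists was at 0 reads in both libraries.

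The spiny projection neuron markers had a median of -0.53, and 1 of 11, Tac1, passed as higher in replicate 1. That is near the 7.78% over all detected genes. In a list of 8 noncoding RNAs, mostly nuclear, 6 were called higher in replicate 2, among them Malat1, Meg3, Snhg11, Neat1 and Mirg, with a list median of 1.27, and 4 were called relative to genes of like exon length. Reads outside annotated exons were 22.8% and 31.0% of counted reads in replicates 1 and 2. Counted reads include those with several alignments, at 27.9% and 13.6%, so these shares are not directly comparable between the libraries. The part of any of these in the members' ratios was not tested, and in pulled-down tissue RNA fewer cells of a type and less RNA per cell cannot be told apart. The lists of oligodendrocyte precursors, cholinergic interneurons, GABAergic interneurons and glutamatergic neurons had medians of 0.88, 0.60, 0.52 and 0.84, with 1, 1, 0 and 1 members called higher in replicate 2 and 0 called lower. Of the endothelial and mural markers, 2 of 5 tested (Pecam1 and Kdr) passed as higher in replicate 1, with a list median of -0.23, while the sum of all 8 was 36.6 CPM in replicate 1 and 49.4 in replicate 2. Pdgfrb, with 25 and 300 reads, and Cldn5, with 4 and 35, were below 1 CPM in replicate 1 and so were not tested, and Rgs5 was at a log2 ratio of 0.98. Among the markers of these 5 lists, Vip was at 0 reads in both libraries.

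The other genes of the pathway were read from 8 lists of 105 genes, of which 82 were detected. By the exact binomial test, 7 were called higher in each library. That is 17.1% of those detected, beside 17.4% of all detected genes in either direction. Their median log2 ratio was 0.13, beside 0.47 over the 9 detected members. Neither value takes exon length into account. Of the members, 5 are among the genes with the longest exons, whose median was 0.33, and the part of exon length was not tested.

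Upstream of the enzymes, the G protein alpha subunits of the Gq class were represented by Gnaq and Gna11. Gnaq was at 63.3 CPM per kilobase of exon in replicate 1 and 61.6 in replicate 2, with a mean of 62.4 ± 1.26 (SD, n = 2), beside 58.3 for Plcb1. Gna11 was lower, at 27.1 and 19.0 CPM per kilobase. Gna14 (0 and 0.676 CPM) and Gna15 (0.0774 and 0.203 CPM) were not detected, and neither of the detected genes passed the test between the libraries.

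Of 20 receptors known to couple to Gq, 16 were detected, with a median log2 ratio of 0.15. Grm5, the gene of mGluR5, was at 29.7 and 39.6 CPM per kilobase of exon in replicates 1 and 2, and the serotonin receptor gene Htr2c at 16.6 and 16.7. The endothelin receptor gene Ednrb passed as higher in replicate 2, at a log2 ratio of 1.64, while Adra1d was lowest at 0.0774 and 0 CPM. Htr2c differed little between the libraries, and the log2 ratio of Grm5, 0.44, did not reach 2-fold.

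Among 14 other phospholipase C genes 11 were detected, and all of those named stood below Plcb1 per kilobase of exon. Plcl2, a relative without catalytic activity, was at 13.9 ± 1.16, Plcxd2 at 10.4 ± 1.45 and Plce1, which is activated by small GTPases, at 5.22 ± 0.0726 CPM per kilobase (SD, n = 2). Plcd4 passed as higher in replicate 2, from 2.59 to 9.40 CPM, and the sperm form Plcz1 was lowest, at 0.116 and 0.541 CPM.

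All 15 genes of phosphoinositide supply were detected. The phosphatidylinositol 4-kinase gene Pi4ka stood at 42.4 ± 6.31, the CDP-diacylglycerol synthase gene Cds2 at 42.4 ± 3.27 and the lipid transfer gene Pitpna at 80.5 ± 6.96 CPM per kilobase of exon (SD, n = 2). Pi4k2b, the lowest, passed as higher in replicate 2 at a log2 ratio of 1.26. These 3 leading genes were of the same order of size as Plcb1, and none of them passed the test between the libraries.

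Genes that remove IP3 and recycle inositol were lower, with 7 of 8 detected. The IP3 kinase gene Itpka was the highest of them per kilobase of exon, at 15.5 ± 1.34 CPM per kilobase (SD, n = 2), and was added after its values were seen. The inositol monophosphatase gene Impa1 stood at 10.8 ± 1.68, the kinase gene Ipmk at 6.23 ± 1.25 and the IP3 phosphatase gene Inpp5a at 5.36 ± 1.31 CPM per kilobase of exon (SD, n = 2). Itpkb, a further IP3 kinase gene, passed as higher in replicate 2 at a log2 ratio of 2.41, with 1.39 and 7.27 CPM. Impa2 was lowest, at 0.890 and 0.0338 CPM.

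Of 26 partners and regulators of the release channels 16 were detected, and none passed in either direction (0 of 16). Itpripl1, with 163 and 7 reads in replicates 1 and 2, and Itpripl2, with 16 and 131, were below 1 CPM in 1 library. They were therefore not tested, and both are named after their values were seen. Fkbp1a, whose product FKBP12 binds ryanodine receptors, had 855 CPM per kilobase of exon in replicate 1 and 441 in replicate 2. Ahcyl1, whose product IRBIT binds the IP3 site of IP3 receptors, was at 66.2 and 66.1, and Jph4, a neuronal junctophilin that ties the endoplasmic reticulum to the plasma membrane, at 60.35 and 41.5. Fkbp1a thus differed by nearly the 2-fold limit (log2 ratio -0.93), in the direction opposite to the ryanodine receptors, while Ahcyl1 was level. These ratios do not take exon length into account. The ryanodine receptors are among the genes with the longest exons, whose median was 0.33, and the part of exon length was not tested. Mrvi1, whose product links IP3 receptors to cGMP kinase in smooth muscle, had the lowest level, with 0 and 0.0338 CPM.

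Genes that refill the endoplasmic reticulum were led by the calcium pump gene Atp2a2 at 135 ± 17.9 CPM per kilobase of exon (SD, n = 2). The chaperone genes Canx and Calr, of which the latter binds calcium in the lumen, stood at 81.0 ± 7.39 and 45.3 ± 7.82. Atp2a3 was low and passed as higher in replicate 1 (log2 ratio -1.23), and Atp2a1, the skeletal muscle pump, had 0 reads in both libraries, which allows up to 0.116 and 0.101 CPM at 3 reads. Of 11 genes in the list 10 were detected.

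Of the TRPC channels, which conduct calcium at the plasma membrane downstream of phospholipase C, 5 of 7 were detected. Trpc1 was at 6.30 ± 1.06 and Trpc5 at 4.83 ± 0.948 CPM per kilobase of exon (SD, n = 2). Trpc2 had 0 reads. Of the calls in these lists, 7 fall outside the rule for named genes and were chosen after their values were seen, namely Chrm5, Cds1 (both higher in replicate 2), Hrh1, Plch2, Itpkc, Inpp1 and Orai3 (higher in replicate 1).

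**Figure D4:**
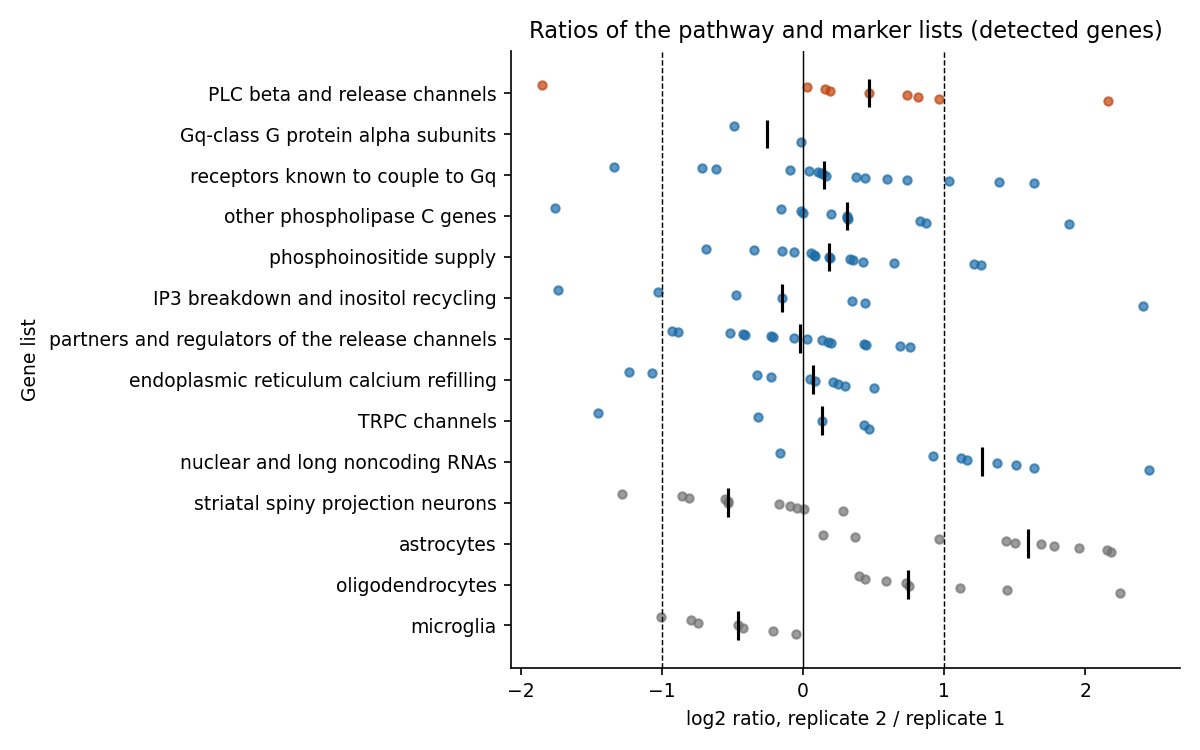
Log2 ratio of replicate 2 over replicate 1 for each detected gene (points). Members are red, the pathway lists and the noncoding RNA list blue, and 4 marker lists grey. Vertical bars are list medians and dashed lines mark a 2-fold ratio. The member median is 0.47, the astrocyte median 1.59 and the spiny neuron median -0.53, all without a shift for exon length.

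Promoters were matched in RefSeq (GRCm38.p6) for 8 of the 10 genes by symbol, and Itpr1 and Ryr3 were not matched. In windows from 250 bases before to 50 after the start, the CpG dinucleotide was counted, with a median of 7 over 32851 promoters. Plcb4 had 50 CpG at its upstream start and 3 at its downstream start, Plcb1 26, Itpr2 26, Plcb3 27, Itpr3 30 and Ryr2 18. Ryr1 had 9 and Plcb2 5. Both abundant and rare members therefore had CpG-rich starts, since Plcb1 and Itpr3 were alike in this count and far apart in level.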

How the data were processed

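Raw read counts per gene symbol were deposited by the authors. The submitters' processing notes name STAR 2.0.0e, HTSeq and the build mm10; annotation, strand setting and read filters were not given in the sources used here. Lines that name no gene (6) stayed out of all totals. In all counted reads, those with several alignments made up 27.9% in replicate 1 and 13.6% in replicate 2, and ambiguous reads 1.84% and 2.08%. CPM was computed over named genes. Exon lengths came from GENCODE M21 (GRCm38), in which 23113 symbols matched 1 gene and 92.7% of detected genes had a length. Between the libraries, every detected gene was tested by its reads with the 2-sided exact binomial test and TMM sizes (edgeR 4.0.16, scipy 1.17.1), adjusted p below 0.05 and at least 2-fold. The binomial test was also run on simulated counts that held counting error only, which is what the test assumes. That run therefore cannot judge its calls between real libraries. A quasi-likelihood fit has no residual degrees of freedom for 1 library against 1. Poisson and Clopper-Pearson 95% intervals and the floor of 3 reads cover counting error only, as reads lacked molecular identifiers and may be copies of 1 molecule. The edgeR exact test used the common dispersion of an intercept-only fit (biological coefficient of variation 0.355). Alternatives were DESeq2 1.42.0 size factors, other filters, lengths and a shift by the median of 20 exon-length bins. The members and lists were chosen with earlier results of these data known. Named genes are all members and, per list, the 3 highest and the lowest by mean CPM and the called gene with the largest ratio; some of these are not reported here. With 2 libraries no likeness of pattern between genes was measured.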

Additional observations from a re-analysis of the deposited data

How the results depend on the processing

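Without a filter on low values, 2 members passed as higher in replicate 2 (Plcb3 and Itpr3, the latter on 1 and 30 reads). With no minimum ratio 7 did, where 39.1% of all detected genes passed in that direction. With the dispersion estimated from the same libraries 0 passed towards replicate 2 and 0 towards replicate 1, as over all detected genes. Counts of 1 in each direction were also found without TMM, with DESeq2 size factors, at a mean of at least 5 CPM and with the exon-length shift. For these settings and for the one without a filter, the share called over all genes is not given here. Those counts therefore cannot be set against a background. Over the 8 pathway lists and the list of noncoding RNAs, the exon-length shift lowered the calls from 13 to 10 towards replicate 2. Towards replicate 1 it lowered them from 7 to 6, and a mean of at least 5 CPM gave 10 and 5. The noncoding RNAs made up 6 of the 13 calls towards replicate 2. They made up 4 of the 10 after the shift and 6 of the 10 at a mean of at least 5 CPM. The mean share of Plcb1 was 86.7% by reads, 83.4% per kilobase of exon and 82.4% per kilobase of the longest transcript, an alternative chosen after seeing the data. For Ryr2 these shares were 49.1%, 39.0% and 47.0%. Without Rn45s in the total the CPM of Plcb1 was 694 and that of Plcb4 92.0. With replicate 1 or 2 left out, a single library remains and gives levels and shares but no test between libraries. No paired analysis was possible because the samples form 1 group. Depth limits Itpr3, at 1 and 30 reads.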
